A study of Mus musculus with 6 samples.

Results

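The regions described here are the stretches of chromatin that were called open in both PCM1 libraries of neonatal mouse heart nuclei and in none of the 4 Input and Myc libraries. Peak intervals of all 6 Omni-ATAC-Seq libraries were merged into 169872 regions, and 431 of these, 0.254%, had a peak in PCM1 replicate 1 and in PCM1 replicate 2 and no peak in any other library. They are called PCM1-only regions. They were chosen by the presence and absence of peaks, so that peak strength in the PCM1 libraries is given as a description and is not tested.

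In Omni-ATAC-Seq a transposase inserts sequencing adapters wherever DNA is accessible. Each library was made from 50000 nuclei of hearts at postnatal day 1 (P1), and 3 groups had 2 biological replicates each. Input nuclei came from hearts labelled WT over a cushion of 2.2 M sucrose, without immunoprecipitation. Myc nuclei came from hearts with Nkx2-5 Cre/+ and R26RSun1-Myc-Egfp/+ and were captured with an antibody to Myc, so that this group holds the Nkx2-5 lineage, which includes some smooth muscle and endothelial cells beside cardiomyocytes. The study chose this dense cushion for its ATAC libraries in order to keep nuclei of cells other than cardiomyocytes low. PCM1 nuclei were captured with an antibody to PCM1 from hearts labelled WT. The labels are followed here, while the study's drawing of the experiment names both WT and tagged hearts as sources and does not say which gave the Input and PCM1 nuclei. All groups share the age and the sucrose step, and no treatment is labelled. By the study's own account, PCM1 antibody did not reach every cardiomyocyte nucleus in a short incubation. In pooled nuclei, a site open in fewer nuclei and a site cut less often in each nucleus cannot be told apart.

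PCM1 is a protein of the centriolar satellites, small granules around the centrosome. When cardiomyocytes mature, PCM1 and other centrosome proteins move to the outer nuclear membrane, which is why an antibody to PCM1 can pull cardiomyocyte nuclei out of a mixed heart suspension. Accessible chromatin marks promoters and enhancers in use, and genes that a cell type transcribes heavily often lie in broad, densely cut stretches.

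Sequences are given for 6 PCM1-only regions to which the results below return: the 4 strongest, the region in the coding sequence of Nmrk2 (a kinase of NAD synthesis in muscle) and the strongest of those at Ryr2 (the calcium release channel of the cardiac sarcoplasmic reticulum). Each is the strongest PCM1 summit with 100 bases to either side, read 5′ to 3′ on the plus strand of GRCm38.p6, the assembly also called mm10. In the region near Col19a1, the capital marks the base that differs from the mouse mitochondrial genome. In the other 5, capitals mark matches to the motifs searched.
Near Col19a1, chr1:24613003-24613203: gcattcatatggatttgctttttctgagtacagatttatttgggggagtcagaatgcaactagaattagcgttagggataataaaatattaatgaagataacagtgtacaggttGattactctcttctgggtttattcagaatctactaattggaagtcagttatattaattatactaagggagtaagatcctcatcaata
Samd4b intron, chr7:28432012-28432212: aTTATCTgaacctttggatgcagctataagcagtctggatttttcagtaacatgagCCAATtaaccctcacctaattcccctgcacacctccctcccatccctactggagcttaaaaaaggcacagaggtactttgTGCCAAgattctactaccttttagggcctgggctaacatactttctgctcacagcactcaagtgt
Lbh, chr17:72919300-72919500: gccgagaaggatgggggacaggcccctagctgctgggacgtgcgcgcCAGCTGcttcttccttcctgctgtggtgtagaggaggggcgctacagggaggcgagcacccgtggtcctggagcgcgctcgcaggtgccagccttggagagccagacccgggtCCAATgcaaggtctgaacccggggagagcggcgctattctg
Mical2, chr7:112226589-112226789: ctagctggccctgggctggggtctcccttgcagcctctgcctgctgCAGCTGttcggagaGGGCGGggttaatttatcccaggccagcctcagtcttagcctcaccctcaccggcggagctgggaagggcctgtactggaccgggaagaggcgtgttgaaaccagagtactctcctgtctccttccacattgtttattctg
Nmrk2 coding sequence, chr10:81199932-81200132: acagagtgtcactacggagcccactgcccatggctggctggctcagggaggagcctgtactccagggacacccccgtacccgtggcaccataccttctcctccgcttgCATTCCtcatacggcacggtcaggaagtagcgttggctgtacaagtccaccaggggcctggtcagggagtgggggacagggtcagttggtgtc
Ryr2 intron, chr13:12029961-12030161: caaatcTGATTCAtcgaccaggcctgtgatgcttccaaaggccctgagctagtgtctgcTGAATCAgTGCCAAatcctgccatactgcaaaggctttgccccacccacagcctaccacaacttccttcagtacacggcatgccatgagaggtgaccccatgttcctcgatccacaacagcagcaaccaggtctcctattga

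Most PCM1-only regions were weak peaks. Peaks were ranked within each library by the −log10 of their q-value, from 0 for the weakest to 100 for the strongest, and the median rank percentile of the 431 regions was 18.9 in PCM1 replicate 1 and 18.4 in PCM1 replicate 2. In each PCM1 library, 95.8% of them lay in the weaker part of the list, below rank percentile 50. The median pileup, the number of reads stacked at the summit, was 10 in both libraries, against 18 over all peaks of either library. The median fold enrichment over the local background was 4.17 in PCM1 replicate 1 and 4.46 in PCM1 replicate 2, against 6.07 and 6.31 over all peaks. Above rank percentile 50 in both libraries there were 5 regions, and above rank percentile 75 there was 1.

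**Figure D1:**
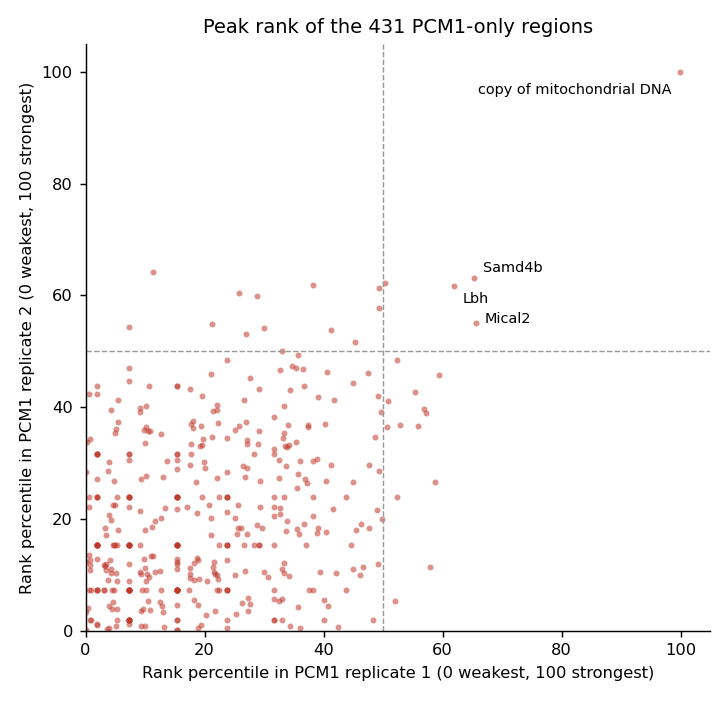
Rank percentile of each of the 431 PCM1-only regions (points) in PCM1 replicate 1 (horizontal axis) and PCM1 replicate 2 (vertical axis), with dashed lines at 50. Nearly all points lie below 50 on both axes, and the region that copies mitochondrial DNA stands alone above 99 in both libraries.

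The strongest PCM1-only region was a nuclear copy of mitochondrial DNA. It lies at chr1:24612954-24613287, 25631 bp upstream of the transcription start site (TSS) of Col19a1, a collagen gene, and overlaps the unprocessed pseudogenes Gm28438 and Gm28437. All 334 bases aligned to the mitochondrial genome without a gap and with 1 mismatch, over part of mt-Co3 and mt-Nd3 (subunits of the respiratory chain) and mt-Tg (a transfer RNA). Its −log10 q was 316 in PCM1 replicate 1 and 370 in PCM1 replicate 2, with pileups of 257 and 249, and no Input or Myc library had a peak there. Of all 169872 merged regions, 4 resembled mitochondrial DNA, and the other 3 were each called in a single library, Input replicate 1 for 2 of them and Myc replicate 2 for 1. Over this sequence, reads of mitochondria and reads of the nuclear copy cannot be told apart, and the region is left out of the descriptions of strong regions that follow.

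Of the next strongest regions, the one in an intron of Samd4b, which encodes an RNA-binding protein, had a −log10 q of 15.7 in PCM1 replicate 1 and 15.2 in PCM1 replicate 2. The region 1095 bp downstream of the TSS of Lbh, a transcription cofactor of heart and limb development, had a −log10 q of 13.9 and 14.3. The 2 libraries were close to each other at both.

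At Mical2, whose product oxidises actin filaments, the region lay 833 bp downstream of the TSS and reached a −log10 q of 15.8 in PCM1 replicate 1 and 11.6 in PCM1 replicate 2. In an intron of Gtf2f1, a subunit of the general transcription factor TFIIF, the order was the other way round, with 9.65 and 14.5. Rank percentiles of these 4 regions lay between 50.3 and 65.6 in both libraries, so that the strongest PCM1-only regions with no mitochondrial match were peaks of middling strength.

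The rest of the 12 strongest were 3 regions outside protein-coding genes (nearest to Mon2, Tbc1d8 and Itprid2) and 4 within a gene (Klf3, Coro2a, Pank4 and Ctdnep1, the last 588 bp upstream of the TSS of Elp5). Klf3 encodes a zinc finger repressor, Coro2a an actin-binding coronin, Ctdnep1 a phosphatase of the nuclear envelope and Elp5 a subunit of the Elongator complex. Their rank percentiles ran from 44.9 to 59.4 in PCM1 replicate 1 and from 44.3 to 61.3 in PCM1 replicate 2.

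The distance between the summits of the 2 PCM1 peaks is limited by the merging of overlapping peaks into regions. Its median was 55 bp, 206 of 431 pairs of summits (47.8%) lay within 50 bp, and 35 lay over 200 bp apart. In PCM1 replicate 1, 222 of the regions ranked higher than in PCM1 replicate 2. The ranks of the libraries went together less closely than among regions called in all 6 libraries. The 431 regions mostly held low ranks, with quartiles of 7.32 and 32.6 in PCM1 replicate 1 and 9.19 and 31.6 in PCM1 replicate 2. A narrow range lowers a correlation, and its part here was not tested. Pearson's r of the rank percentiles was 0.37 and Spearman's rho 0.29 across the 431 regions, and 0.80 and 0.87 across the 48861 regions called in all 6 libraries. These are descriptions across regions of the same libraries, and regions are not replicates.

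Most regions called in PCM1 libraries and nowhere else were found in 1 of them. PCM1 replicate 1 had 6453 regions with no peak in an Input or Myc library, of which 6.68% were also called in PCM1 replicate 2, and of 5391 such regions in PCM1 replicate 2, 7.99% were also called in PCM1 replicate 1. For the Myc group the same shares were 25.2% and 25.3%, from 3132 regions called in both Myc libraries and in none of the other 4 (1.84% of all merged regions). For the Input group they were 8.44% in replicate 1 and 45.4% in replicate 2, from 1837 such regions (1.08%). The Input libraries differed most in depth, as given below.

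At the limit of the rule, the 3 weakest PCM1-only regions each had a −log10 q of 1.39 in PCM1 replicate 1. They lay near Ssbp2, Six3 and Lamtor3, with a −log10 q of 5.77, 2.72 and 1.54 in PCM1 replicate 2. Just outside lay regions called in both PCM1 libraries and weakly in 1 other library. The weakest such peaks had a −log10 q of 2.05 in Myc replicate 1 near Rreb1 and near Epb41l4a, and of 2.06 in Myc replicate 2 near Ctnna3. In the PCM1 libraries these 3 regions had a −log10 q from 2.35 to 5.75, within the range of the PCM1-only regions.

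How much the count owed to single libraries was read from the near misses. Of 59837 regions called in both PCM1 libraries, 48861 (81.7%) were called in all 4 other libraries and 1199 (2.00%) in exactly 1. That library was Input replicate 1 for 922 regions, Myc replicate 2 for 132, Myc replicate 1 for 103 and Input replicate 2 for 42. Input replicate 1 was the deepest library, with a genome background (the pileup expected if reads were spread evenly) of 3.96. That of the other 5 libraries ran from 0.903 in PCM1 replicate 2 to 1.44 in the Myc libraries. Without Input replicate 1 the rule found 1383 regions instead of 431. With the 75336 strongest peaks of each library it found 1594, which overlapped 252 of the 431 (58.5%).

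The lack of a peak in the other libraries was set against their depth. Pileup and local background of each PCM1-only region were multiplied by the ratio of genome backgrounds, to give what the same density of cuts would stack up in another library. From PCM1 replicate 1, the median in Input replicate 1 would be a pileup of 40.5, in Myc replicate 1 14.8, in Myc replicate 2 14.7 and in Input replicate 2 10.5. At those densities, taken from each PCM1 library in turn, 425 of 431 regions (98.6%) would pass the weakest p-value called in Input replicate 2, and all 431 would pass it in both Myc libraries and in Input replicate 1. The PCM1 values entering this were themselves selected on being called, which largely fixes that they pass, so nothing is read from these counts.

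PCM1-only regions differed widely in the density of cuts around them. At 100 of the 431, the local background was within 1% of the genome background in both PCM1 libraries. At 18, the local background was at least 10 times the genome background in both. As a set, the regions had a lower local background at their summits than the peaks of these libraries. Most were weak peaks, and the part of this in the lower background was not tested. Regions of all 6 libraries within 10 kb of them had a local background above the average of such regions. The log2 difference ran from 0.08 in Input replicate 1 to 0.26 in PCM1 replicate 1. At the 431 regions, the median ratio of local to genome background was 1.39 and 1.35 in PCM1 replicates 1 and 2, against 1.95 and 2.04 over all peaks. A ratio of at least 2 was found at 139 and 141 of the 431, against 48.9% and 50.4% of all peaks. The densest was a region of 270 bp in an intergenic stretch, chr2:180401344-180401613, 2932 bp beyond Mir133a-2, a muscle microRNA gene, and 54830 bp upstream of the nearest protein-coding TSS, that of Slco4a1. Its local background was 102 times the genome background in PCM1 replicate 1 and 108 times in PCM1 replicate 2, with pileups of 151 and 160. Peaks are scored against this background, and the rank percentile of the region was 17.7 and 33.4.

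Other dense surroundings lay at genes of several kinds. The region in the Nmrk2 coding sequence (chr10:81199906-81200505) had a local background of 65.6 and 70.4 times the genome background. The region in the coding sequence of Six5, a homeobox gene next to the myotonic dystrophy kinase gene Dmpk, had 21.1 times in both libraries. At Mical2 it was 20.2 and 19.6 times. The region 336 bp downstream of the TSS of Tcap, which encodes the titin cap protein of the Z disc, had 11.9 and 13.2 times. These genes are examples, picked out for their dense surroundings after the values were seen, apart from Mical2 and Tcap, which the rule for regions at a TSS names.

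Beside those regions, chromatin that the other libraries also called open could be compared between libraries. The nearest region called in all 6 libraries was taken for the 10 densest PCM1-only regions that had one within 10 kb, and its local background was divided by the genome background of each library. The sites were picked for a high local background in the PCM1 libraries, and the windows of neighbours overlap theirs, so that the order of the libraries is largely fixed by that choice and is given as a description. Beside the Mir133a-2 region, 492 bp away, the ratio was 106 in PCM1 replicate 1 and 112 in PCM1 replicate 2. It was 23.8 and 26.6 in the Myc libraries, and 18.5 and 32.3 in Input replicates 1 and 2. The PCM1 libraries did not overlap the others there, and the lower PCM1 value was over 3 times the highest of the other 4.

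Beside Nmrk2 the ratio was 64.0 and 68.1 in the PCM1 libraries, 19.0 and 20.98 in the Myc libraries, and 30 and 27.0 in the Input libraries. Beside Ppargc1b, a coactivator of mitochondrial and oxidative genes, it was 15.8 and 17.1 with PCM1, 7.02 and 6.84 with Myc, and 9.87 and 8.81 with Input. In both, PCM1 values were highest and Myc values lowest.

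Beside Six5, Mical2, Samd4b, Angptl2 (a secreted angiopoietin-like protein) and Sptan1 (the alpha chain of spectrin) both PCM1 libraries were also above the other 4, with ratios from 3.898 to 21.3 in the PCM1 libraries and from 2.81 to 15.9 in the others. At Sptan1 the gap was narrow, with 14.1 and 14.6 against at most 13.9. At Klf3 and Gna11 (a G protein alpha subunit) they were not separated. Beside Gna11 the ratio was 14.6 and 15.6 with PCM1 and 14.9 in Input replicate 2. Input replicate 1 had 4.65 there, far below its partner, while beside Nmrk2 and Ppargc1b it was the higher of the Input libraries. The part of its depth in these gaps was not tested.

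**Figure D2:**
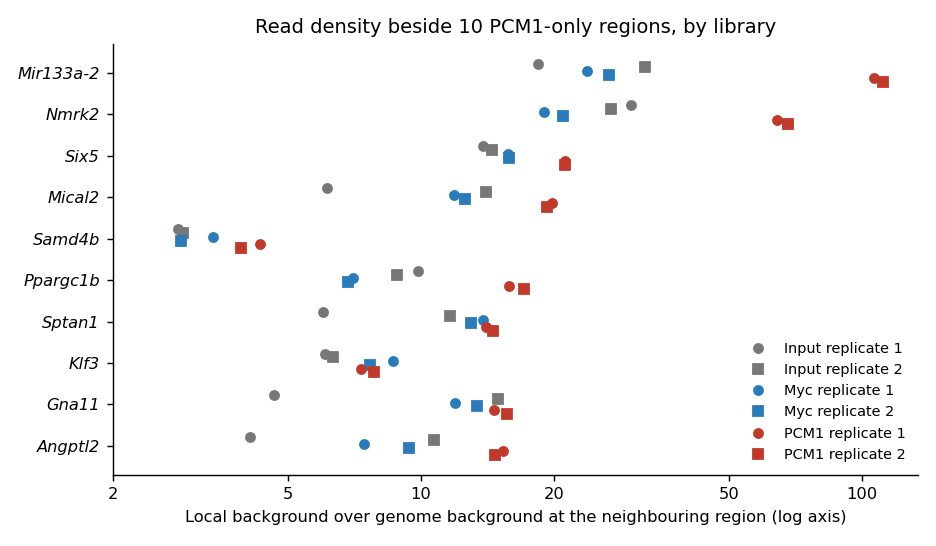
Local background over genome background (horizontal log axis) at the region of all 6 libraries nearest to each of the 10 PCM1-only regions with the densest surroundings, with 1 point per library (colour for the group, circle for replicate 1, square for replicate 2). The rows were picked for a high local background in the PCM1 libraries, whose points lie farthest right at Mir133a-2 (106 and 112) and Nmrk2 (64.0 and 68.1).

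Over all PCM1-only regions the pileup of neighbours, another measure than the local background, was compared in the same way. Within 10 kb of them lay 250 nearest regions of all 6 libraries, and the log2 of their pileup over genome background was averaged and set against the average of all 48861 such regions in the same library. The result was 0.19 in PCM1 replicate 1 and 0.14 in PCM1 replicate 2. It was 0.05 and 0.07 in the Input libraries and 0.02 in both Myc libraries. The mean was 0.16 ± 0.04 (SD, n = 2) with PCM1 and 0.04 ± 0.03 (SD, n = 4) in the others, a difference of 0.12 on the log2 scale or 1.09-fold, and the groups did not overlap. With neighbours taken within 50 kb the difference was 0.055, and for the local background within 10 kb it was 0.16. Neighbours share chromatin with the regions the rule selected, so no test is given.

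Beside the 1243 neighbours of Myc-only regions the values of the 6 libraries lay between −0.08 and −0.06, with the Myc libraries at −0.06 and −0.08. Beside the 916 neighbours of Input-only regions they lay between −0.20 and −0.14. For the local background, the Myc libraries were at 0.003 and −0.006 beside Myc-only regions, above the other 4 libraries (−0.082 to −0.054). The Input libraries were at 0.006 and −0.017 beside Input-only regions, above the other 4 (−0.070 to −0.020). By that measure each pair of libraries thus stood highest beside the regions it had chosen.

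**Figure D3:**
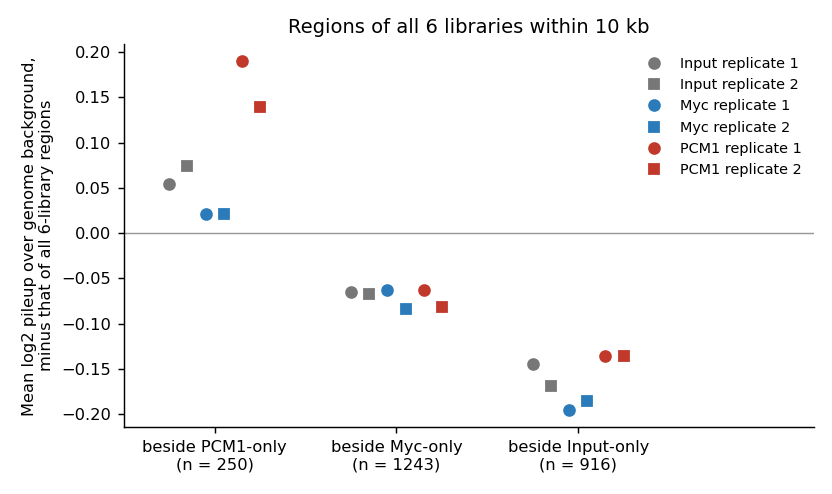
Mean log2 pileup over genome background at regions of all 6 libraries within 10 kb of PCM1-only, Myc-only and Input-only regions, minus the same mean over all 48861 such regions (vertical axis), with 1 point per library (colour for the group, circle for replicate 1, square for replicate 2). Beside PCM1-only regions the PCM1 libraries are at 0.19 and 0.14 and the other 4 between 0.02 and 0.07.

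Measures in which the rule played no direct part were compared over libraries by an exact permutation test (two-sided). Over 2 PCM1 libraries against 4 others, it has 15 choices and cannot give a p below 0.0667. The regions were chosen by which libraries had peaks, and they share chromatin with their surroundings. Exchanging libraries does not repeat that choice, so nothing is concluded from the p-values. The share of PCM1-only regions with another peak of the same library within 10 kb was 71.9% and 74.5% in the PCM1 libraries, 81.2% and 82.4% in the Myc libraries, and 87.7% and 71.5% in Input replicates 1 and 2. The PCM1 mean of 73.2% ± 1.80 (SD, n = 2) was 7.48 percentage points below that of the other libraries, 80.7% ± 6.77 (SD, n = 4; exact permutation p = 0.333, adjusted p = 0.333 over 2 tests), and the shares overlapped. The highest shares were those of the 3 libraries with the most peaks. With 75336 peaks taken from each library the sign turned, to PCM1 being 1.39 percentage points higher (exact permutation p = 0.533).

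The TSS of the nearest protein-coding gene had a peak within 1 kb in most cases. Of the 413 genes nearest to a PCM1-only region (1.88% of 21951 protein-coding genes), 331 and 327 had one in the PCM1 libraries, and between 327 and 356 in the other 4. The mean rank percentile of the strongest such peak, counted as 0 where there was none, was 63.0 ± 0.816 (SD, n = 2) in the PCM1 libraries and 68.3 ± 4.09 (SD, n = 4) in the others. The difference of −5.34 did not pass the exact permutation test (p = 0.267, adjusted p = 0.333 over 2 tests). With 75336 peaks taken from each library the difference was −2.37, and both PCM1 libraries were lowest. They had 61.9 and 61.1, against 62.6 to 64.8 in the others (exact permutation p = 0.0667, the smallest it can give).

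The nearest genes were compared with lists of cell types and pathways. In 13 lists of 12 genes each, cardiomyocyte genes were nearest to 5 PCM1-only regions, 4 at Ryr2 and 1 at Actc1, the cardiac actin gene. Smooth muscle and pericyte genes were nearest to 2, both at Myh11 (smooth muscle myosin). Cardiac transcription factors (Tead1), epicardial genes (Bnc1) and the nuclear envelope list (Tmpo, 321295 bp away) had 1 each. Fibroblast, endothelial, immune, erythroid, neuronal and glial genes, both lists of G1/S regulators and the centrosome list had 0. Counted as genes, 2 of 12 in the cardiomyocyte list, the most of the 13 lists, stand beside 1.88% of all protein-coding genes. At that share most lists of 12 genes would have none, so a count of 0 is not read as a lack. Shares of Myc-only, Input-only or all merged regions nearest to these lists are not given, so 2 of 12 is not read as an enrichment.

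Ryr2 was the gene with the most PCM1-only regions beside it. In its introns, 3 lay 76884, 88593 and 437531 bp into the gene, and 1 lay 8715 bp upstream of its TSS. The strongest, whose sequence is shown above, had a −log10 q of 5.92 in PCM1 replicate 1 and 4.91 in PCM1 replicate 2, with a local background 9.69 and 9.90 times the genome background. The weakest by the smaller of its values had 7.80 and 2.16. The 4 regions share 1 gene of great length and are not independent. The gene model Gm20388 held 4 regions, but it overlaps other genes, and the regions in it also lay within Gse1, Zfpm1 and 6430548M08Rik.

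The remaining listed genes had weak peaks. The Actc1 region lay 46244 bp upstream of the TSS with a −log10 q of 4.76 and 3.55, that in an intron of Tead1 had 4.75 and 2.74, and that near Bnc1 had 2.16 and 3.23. At Myh11 the regions lay 1296 and 7207 bp upstream, and their −log10 q ran from 3.76 to 4.01. A region in the coding sequence of Sun1, the nuclear membrane protein that carries the tag in the Myc hearts, had 7.50 and 5.97.

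The markers of cell types were open in the libraries as follows. Of 12 cardiomyocyte genes, 11 and 10 had a peak within 1 kb of the TSS in the PCM1 libraries, against 9 to 11 in the others. Of 12 fibroblast genes, 8 and 9 had one in the PCM1 libraries and 10 to 12 in the others. Of 12 immune genes, 0 had one in either PCM1 library and 0 to 2 in the others. The PCM1 libraries had 12 and 12 of 12 smooth muscle and pericyte genes (11 to 12 in the others), 10 and 10 of 12 endothelial genes (10 to 11) and 8 and 8 of 12 epicardial genes (7 to 10). Of 11 erythroid genes they had 2 and 3 (3 to 4), and of 12 neuronal and glial genes every library had 6. Of 12 cardiac transcription factors they had 10 and 9 (9 to 10), and of 12 positive G1/S regulators 11 and 10 (11 to 12). In every library the counts were 11 for negative G1/S regulators and 12 for the nuclear envelope and centrosome lists. The PCM1 lists held 83139 and 81487 peaks, against 107216 to 131500 in Input replicate 1 and the Myc libraries. Input replicate 2, with 75336 peaks, had 10 of the 12 fibroblast genes. The share of all protein-coding genes with such a peak is not given for each library, so these counts are not read as a difference between groups. The part of list length, or of the choice of the 431 regions, in them was not tested.

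A summit within 1 kb of a protein-coding TSS was found in 15 PCM1-only regions (3.48%), against 8.64% of all merged regions, 2.87% of Myc-only and 1.91% of Input-only regions. Among the 10 strongest were those at Mical2, Elp5, Tcap, Zfp366, Rsad1, Angptl2, Hist1h2bn, Ltk and Sh3bp5. Apart from those already described, Ltk encodes a receptor tyrosine kinase and Hist1h2bn a histone H2B. Rank percentiles of those named ran from 19.8 to 65.6 in PCM1 replicate 1 and from 10.99 to 55.1 in PCM1 replicate 2. Among them the libraries differed most in −log10 q at Rsad1, with 5.73 and 11.2.

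By annotation of the summit, 47.1% of PCM1-only regions lay in introns (95% exact binomial interval 42.3 to 51.9), 22.7% in promoters (18.9 to 27.0) and 22.3% in distal intergenic sequence (18.4 to 26.5). A promoter was taken as 3 kb to either side of any annotated TSS, pseudogenes included. Over all merged regions the shares were 39.5%, 27.1% and 27.5%. Myc-only regions had 39.9%, 19.99% and 35.2%, and Input-only regions 44.3%, 21.1% and 28.0%. Regions called in a single PCM1 library and nowhere else had 44.7%, 21.3% and 26.8%. The intron share was thus above, and the distal share below, those of all merged regions and of Myc-only regions by more than the intervals of the 431, which cover counting error only. The intron shares of Input-only and single-library PCM1 regions lay within the interval of the 431, and their distal shares above it.

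Coding sequence held 16 summits, or 3.71% (2.14 to 5.96), against 2.48% of all merged regions, an interval that includes the background. Beside Nmrk2, Six5, Sun1 and Rsad1 they lay in Camta1, Pm20d1, Plin4, Ntn1, Ajuba, Nim1k, Rcn3, Alppl2, Hdac9, Tspear, Morc2a and Lhx5. Plin4 coats lipid droplets and Hdac9 is a histone deacetylase of muscle. Their −log10 q ran from 1.53 to 10.4 in PCM1 replicate 1.

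**Figure D4:**
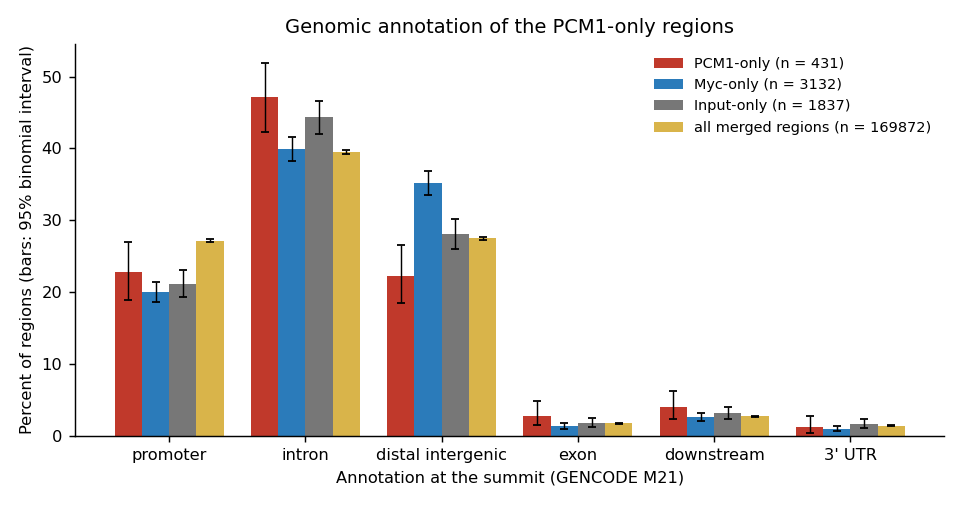
Percent of PCM1-only, Myc-only, Input-only and all merged regions (bars, with 95% exact binomial intervals) in each annotation class at the summit. PCM1-only regions have 47.1% in introns and 22.3% in distal intergenic sequence, and all merged regions 39.5% and 27.5%.

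The median length of PCM1-only regions was 320 bp, against 377 bp over all merged regions and 658 bp for regions of all 6 libraries. It was 304 bp for Myc-only regions, 328 bp for Input-only regions and 208 bp for regions called in a single PCM1 library and nowhere else. The median gap to the nearest region of all 6 libraries was 7755 bp, against 14426.5 bp for Myc-only and 9940 bp for Input-only regions. Within 10 kb of a region of all 6 libraries lay 58.2% of PCM1-only, 40.3% of Myc-only and 50.1% of Input-only regions. The median distance to the nearest protein-coding TSS was 35220 bp for PCM1-only regions (95% interval 28626 to 43489), close to the 35603 bp of all merged regions.

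Base composition set them apart from the Myc-only regions more than from the others. In the 100 bp to either side of the summit, median GC content was 51.7% (95% interval 51.2 to 52.7), against 50.7% in all merged regions and in Input-only regions and 45.8% in Myc-only regions. Chromosome X held 6 PCM1-only regions (1.39%, against 1.87% of all merged regions), and chromosome Y held 1. Repeat-masked bases were absent from 52.2% of the windows, against 50.04% over all merged regions.

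Short DNA words bound by known factor families were searched on both strands of these windows, and the share in PCM1-only regions was set beside that in windows of the same length over all merged regions. The E-box CAGCTG (HAND and MyoD factors), shown in the Lbh and Mical2 sequences, was in 19.0% and 19.8%. The TEAD word GGAATG, seen as its reverse complement in the Nmrk2 sequence, was in 15.5% and 15%, and the GATA word AGATAA in 11.1% and 12.02%. The MEIS word TGACAG was in 23.4% (19.5 to 27.7) and 20.04%. The intervals of these 4 include the share of all merged regions.

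The cardiac NKX2-5 word CACTTAA was in 3 windows, 0.696% (0.144 to 2.02), against 2.18% of all merged regions, and the MEF2 word TAAAAATA in 2.09% (0.959 to 3.93) against 3.25%. The word AAGGTCA, a half-site of estrogen-related and other nuclear receptors, was in 7.66% (5.33 to 10.6), against 5.52% of all merged, 5.44% of Input-only and 4.09% of Myc-only regions. The intervals for MEF2 and AAGGTCA include the share of all merged regions. That for CACTTAA does not, nor does it include the 2.49% of Myc-only or 2.67% of Input-only regions. It does include the 1.99% of regions called in a single PCM1 library and nowhere else, and the 1.78% of regions of all 6 libraries. The share rests on 3 windows and is 1 of 16 words compared, without adjustment. The Ryr2 sequence holds matches of the AP-1 word TGANTCA, which was in 7.66% of PCM1-only windows and 8.82% of all.

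Words of promoters and boundaries were scarcer than over all merged regions. The KLF and SP word GGGCGG was in 4.87% (3.04 to 7.35) against 11.2% of all merged regions, the ETS word CCGGAA in 2.32% (1.12 to 4.23) against 5.14%, and the CTCF core AGGGGGC in 2.32% against 5.39%. In the 10982 regions called in a single PCM1 library and nowhere else, these shares were 4.30%, 2.89% and 2.7%, within the intervals of the PCM1-only regions. Myc-only regions had 4.41%, 4.21% and 4.82%, Input-only regions 7.84%, 2.89% and 3.70%, and regions of all 6 libraries 23.7%, 9.06% and 8.19%. The remaining words were TBX (AGGTGTGA, 0.928% against 0.783%), NFY (CCAAT, 18.8% against 22.6%), FOX (TGTTTAC, 2.55% against 2.81%), the steroid receptor half-site (AGAACA, 14.8% against 17.6%) and the NFI half-site (TTGGCA, 17.4% against 18.1%). A match is a run of letters and does not show that a factor was bound.

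**Figure D5:**
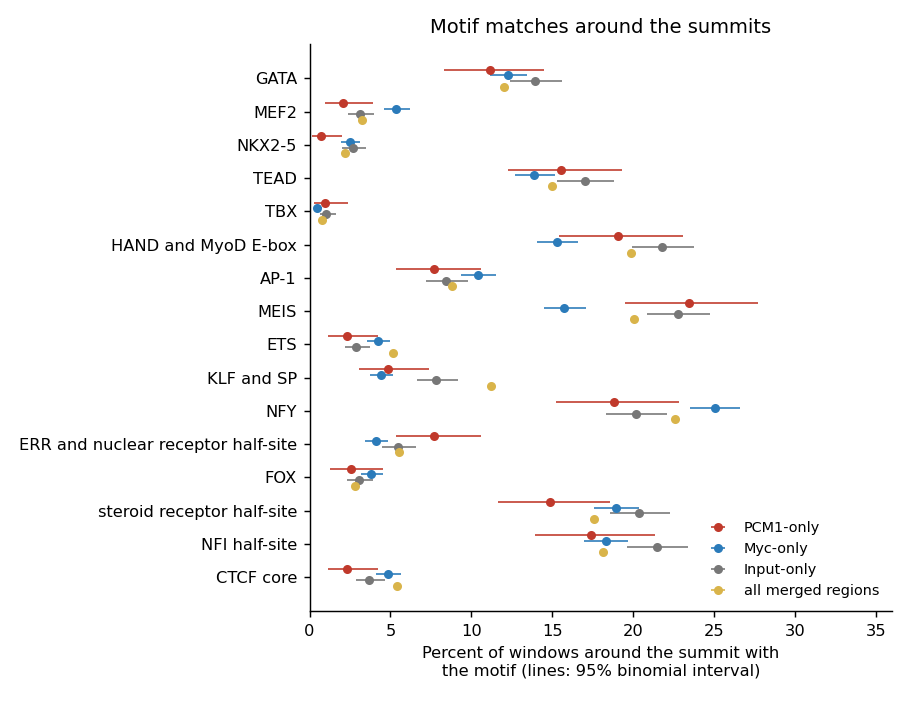
Percent of windows (100 bp to either side of the summit) that hold each of 16 words on either strand (points, with 95% exact binomial intervals) in PCM1-only, Myc-only, Input-only and all merged regions. PCM1-only regions are below all merged regions for the KLF and SP word (4.87% against 11.2%). Their share of the nuclear receptor half-site (7.66%) is the highest shown, with an interval that includes the 5.52% of all merged regions.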

How the data were processed

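Omni-ATAC-Seq peak lists of 6 libraries were used as deposited. Per the study's methods, the authors trimmed reads, aligned them to mm10 with Bowtie2 2.3.3.1, marked duplicates with Picard 2.2.1, removed blacklisted regions with bedtools 2.7.1, shifted reads for the transposase, and ran MACS2 2.1.0.20160309 on each library at a q-value of 0.05. The deposited columns hold a score, a fold enrichment (a ratio to the local background), the −log10 of the p-value and of the q-value, and the summit position. Peaks were called per library, without pooling.

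Peaks were merged with bedtools 2.31.1 where they overlapped or touched. The pileup and local background of each summit were solved from the authors' fold and p-value, and at least 99.9991% of pileups in each library were whole numbers within 0.02. The most frequent background served as the genome background, the measure of depth, and ran from 0.903 to 3.96. Regions were annotated with GENCODE M21 and GRCm38.p6, mitochondrial sequence was found with blastn at an E-value of 1e-05, and Python 3.11.15 with scipy 1.17.1 was used elsewhere. Groups follow the labels. Intervals are 95% exact (Clopper-Pearson) for shares and order-statistic intervals for medians, and cover counting error only. Computations were tested on simulated data.

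The regions, gene lists, words and tests were chosen with earlier results of these data known. Named regions were the 12 with the highest value of the smaller PCM1 rank percentile, up to 10 within 1 kb of a protein-coding TSS, those nearest to a listed gene, genes holding 3 or more, and those at the limits of the rule. A single region that this rule names is not reported here. The comparison of neighbouring regions and the densest surroundings were added after the data were seen. Of the listed genes, 1 erythroid gene was not in the annotation. Alternatives were a q-value of 0.01, equal numbers of peaks, merging within 500 bp, 50% reciprocal overlap, promoters of 1 kb, GC content of whole regions, 50 kb flanks, ranks by fold, permutation within replicate numbers, and leaving out each library. Reads were not analysed here.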

Additional observations from a re-analysis of the deposited data

How the results depend on the processing

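Of 101 alternative values, 88 stayed within their limits or on their side of the threshold. Those of the permutation tests could not cross 0.05, since no p below 0.0667 was possible, so nothing is read from their staying. The number of PCM1-only regions was 1594 with an equal number of peaks per library, and from 473 to 6486 when 1 library was left out, 1383 of them without Input replicate 1, 5428 without PCM1 replicate 1 and 6486 without PCM1 replicate 2. By construction a library fewer must be free of a peak, or must hold one. The distal intergenic share ran from 20.8 to 26.8% and median GC content from 49.8 to 52.2% without 1 library. With promoters of 1 kb, the promoter share was 10.7% and the intron share 55.2%. GC content over whole regions was 50.7%. The difference in flanking peaks turned to 1.39 percentage points with an equal number of peaks, which removes the differences in list length. With 50 kb flanks it shrank to −0.29 percentage points (exact permutation p = 0.867), which kept its sign and is counted among the 88.

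The difference in neighbour pileup, 0.12 on the log2 scale, was 0.16 for the local background and 0.055 with 50 kb flanks, and from 0.10 to 0.15 without 1 library.

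With the replicate block, in which libraries were exchanged within replicate numbers (9 choices), the differences of −7.48 in flanking peaks (exact permutation p = 0.333) and −5.34 in TSS rank (exact permutation p = 0.222) were again not called. This exchange cannot give a p below 0.111, so it says nothing about stability. Deviations of same-numbered libraries were uncorrelated across regions (−0.011 to 0.006). This does not show that they came from separate preparations. By the study's drawing, an aliquot of cushion nuclei was the input and the remaining nuclei went to immunoprecipitation.

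A missing peak has to be read beside the depth of its library. The lowest pileup called at the genome background was 5 or 6 in the 5 shallower libraries and 11 in Input replicate 1. The genome backgrounds were 0.903 to 1.44 and 3.96, so these raw pileups do not rank the libraries by sensitivity. The exact permutation test over libraries cannot go below 0.0667.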
